A study of Mus musculus with 21 samples.

Results

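The collagen genes of the mouse were followed in hearts of embryos with and without the chromatin remodeller CHD4. Members were all genes in the deposited expression tables whose symbol is Col, a number, the letter a and a number. The rule named 44 genes out of 24509, without the use of any measured value. Polyadenylated RNA had been sequenced from hearts of CD1 embryos in 2 states of the Chd4 gene: Chd4(Δflox/Δflox), called null here, in which both floxed alleles were recombined, and Chd4(flox/flox), called flox here, the control with both floxed alleles intact. At embryonic day (E) 9.5 there were 5 null and 5 flox libraries, each from 200 ng of RNA, and at E10.5 there were 3 null and 3 flox libraries, each from 300 ng. A map of CHD4 binding came from wild-type CD1 hearts at E10.0. The sources used here do not name the recombinase behind the null hearts, the cells in which it acts or how many hearts a library holds. The question behind the comparison is which genes depend on CHD4, the ATPase of the NuRD complex, in the forming heart.

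Collagens are secreted or membrane-bound proteins in which chains wind into a triple helix. Fibrillar collagens (types I, II, III, V and XI) build the cables of the interstitial matrix, whereas type IV builds the sheet of basement membranes under endocardium, myocardium and epicardium. In the embryonic heart, the endocardial cushions that become valves and the epicardium with its derivatives are known sources of collagen RNA. Most type I molecules hold 2 chains from Col1a1 and 1 from Col1a2, and the type VI chains of Col6a1 and Col6a2 are needed together for a secreted molecule.

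Promoter windows (250 bases before to 50 bases after the annotated start, RefSeq, GRCm38.p6) were at hand for 35 of the 44 genes. The windows of the genes below are shown because Col6a1 and Col6a2 are neighbours that rose together at E10.5, Col7a1 and Col8a1 rose at E9.5, and Col4a1 and Col4a2 start 21 bp apart on opposite strands and kept a narrow ratio at E9.5. Each is written 5′ to 3′ on the gene's strand. Capitals mark GGGCGG, the core of the GC box, and CCAAT, the CCAAT box, with their reverse complements CCGCCC and ATTGG.
Col6a1 (chr10:76725995-76726294, minus strand): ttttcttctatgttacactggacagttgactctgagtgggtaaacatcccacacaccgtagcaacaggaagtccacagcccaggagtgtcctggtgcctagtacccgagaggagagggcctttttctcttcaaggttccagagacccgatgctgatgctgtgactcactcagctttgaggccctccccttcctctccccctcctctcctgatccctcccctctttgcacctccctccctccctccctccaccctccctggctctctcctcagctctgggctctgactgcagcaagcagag
Col6a2 (chr10:76623581-76623880, minus strand): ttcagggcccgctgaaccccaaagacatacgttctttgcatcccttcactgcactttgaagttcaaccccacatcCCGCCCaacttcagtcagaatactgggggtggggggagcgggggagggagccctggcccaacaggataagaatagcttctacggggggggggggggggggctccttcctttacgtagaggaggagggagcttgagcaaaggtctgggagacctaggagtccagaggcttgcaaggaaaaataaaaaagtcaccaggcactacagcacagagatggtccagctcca
Col7a1 (chr9:108953336-108953635, plus strand): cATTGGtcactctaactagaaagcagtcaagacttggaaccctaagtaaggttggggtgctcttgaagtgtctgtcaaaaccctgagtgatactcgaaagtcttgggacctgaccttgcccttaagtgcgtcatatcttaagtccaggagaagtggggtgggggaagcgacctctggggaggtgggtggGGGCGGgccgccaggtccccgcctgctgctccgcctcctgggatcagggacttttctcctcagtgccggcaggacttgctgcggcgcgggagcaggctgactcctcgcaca
Col8a1 (chr16:57754688-57754987, minus strand): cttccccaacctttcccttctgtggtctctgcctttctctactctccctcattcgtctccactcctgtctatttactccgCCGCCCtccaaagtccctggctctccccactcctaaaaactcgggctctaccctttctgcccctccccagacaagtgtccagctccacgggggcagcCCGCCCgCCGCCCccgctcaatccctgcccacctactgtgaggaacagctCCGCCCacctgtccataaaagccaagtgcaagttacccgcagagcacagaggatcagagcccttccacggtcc
Col4a1 (chr8:11312777-11313076, minus strand): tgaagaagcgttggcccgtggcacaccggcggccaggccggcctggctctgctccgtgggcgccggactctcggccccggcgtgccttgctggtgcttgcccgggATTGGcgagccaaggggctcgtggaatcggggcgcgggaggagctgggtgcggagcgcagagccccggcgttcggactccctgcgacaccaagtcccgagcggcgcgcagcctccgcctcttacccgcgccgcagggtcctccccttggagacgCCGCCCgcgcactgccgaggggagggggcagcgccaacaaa
Col4a2 (chr8:11312555-11312854, plus strand): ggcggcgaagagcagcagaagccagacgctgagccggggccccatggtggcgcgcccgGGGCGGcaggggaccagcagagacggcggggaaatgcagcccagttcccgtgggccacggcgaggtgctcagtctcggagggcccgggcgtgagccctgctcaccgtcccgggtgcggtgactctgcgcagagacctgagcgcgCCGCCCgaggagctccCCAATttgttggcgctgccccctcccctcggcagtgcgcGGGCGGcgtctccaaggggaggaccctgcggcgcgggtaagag
The Col6a1 window held neither motif, and the Col6a2 window printed held 1 GC box. A second Col6a2 start gives another window (chr10:76623355-76623654), with 3 GC boxes and 64.3% G and C, against 56.7% in the one printed. The Col8a1 window held 4 GC boxes, with no overlap between motifs, and the Col7a1 window 1 GC box and 1 CCAAT box. The windows of Col4a1 and Col4a2 held 1 and 3 GC boxes and 1 CCAAT box each, were 74.0% and 73.7% G and C, and shared 78 bases. With 1 window a gene and both strands read, GGGCGG was found in 22 of 35 collagen windows (62.9%) and in 35.9% of the 27025 windows of all genes. CCAAT was found in 12 of 35 (34.3%) and in 37.9% of all windows, and TATAAA, the TATA box, in 5 of 35 (14.3%) and in 14.2%. The median collagen window was 60.0% G and C with 12 CpG, against 52.7% and 7 over all windows. None of the 6 windows printed overlapped a CHD4 peak that all 3 peak lists shared.

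The library sizes behind the RPKM, recovered from the values, were 17.1 to 20.1 M reads in null and 19.6 to 23.5 M in flox libraries at E9.5. They were 18.0 to 18.9 M and 17.3 to 18.0 M in the E10.5 libraries. Levels are RPKM, the authors' reads scaled to gene length in kilobases and to library size, and 1 RPKM of a 5 kb transcript equalled 85.3 to 117 reads in E9.5 and 86.7 to 94.5 reads in E10.5 libraries. Chd4 itself averaged 45.7 ± 3.08 RPKM in null and 92.4 ± 1.33 RPKM in flox hearts at E9.5 (SD, n = 5 each), and 52.7 ± 4.61 and 77.6 ± 12.3 RPKM at E10.5 (n = 3 each). Chd4 fell at E9.5, with a log2 difference of -1.01 (SE 0.05, adjusted p = 1.69e-06) by limma, and at E10.5 the difference was -0.55 (SE 0.16, adjusted p = 0.116). Its null and flox libraries did not overlap at either stage. The 8 cardiomyocyte markers listed, all tested, had sums of 5263 to 6799 RPKM in null and 6835 to 8135 RPKM in flox hearts at E9.5, where Myh6, Actn2 and Nkx2-5 fell. At the same stage, null 1, flox 1 and flox 3 stood apart by low epicardial genes: the 10 listed (Wt1, Tcf21, Tbx18 and others, none at 0) summed to 155 RPKM in null 1, 84.9 in flox 1 and 155 in flox 3, against 299 to 461 in the other null and 200 to 341 in the other flox libraries. Null 4 and flox 4 stood apart at E9.5 by 10 genes of low oxygen, which summed to 1169 RPKM in null 4 and 1081 RPKM in flox 4, against 510 to 636 in the other null and 566 to 619 in the other flox libraries. Erythroid genes were higher in null hearts at E9.5: 10 of 12 measured rose, and their sums were 27875 to 75130 RPKM in null against 11003 to 28979 in flox hearts. At E10.5 the erythroid sums overlapped, highest in null 3 (142381 RPKM) among null and in flox 2 (68095 RPKM) among flox libraries. Hbb-b1 rose there, 11 did not pass, and the median difference was 0.74. At E10.5, null 1 was highest in genes of low oxygen (sum 1066 RPKM, against 470 and 399 in the other null and 232 to 313 in flox libraries), and liver genes summed to 1371 RPKM in null 2, 937 in null 3 and 177 in flox 2 but to at most 19.9 in the others. All null libraries thus lay above all flox libraries in the low-oxygen sum, and the median difference of the 10 genes was 1.53. Ndufa4l2 rose by 4.05 and Ndrg1 by 3.10 (limma adjusted p = 0.00503 and 0.0272), and 8 did not pass. Without null 1 these differences were 3.47 and 2.40. Of the 10 cushion and fibroblast genes and the 10 endothelial genes listed, none passed at either stage. The part of the low-oxygen levels at either stage and of the liver levels at E10.5 in the results was not tested. In whole hearts, fewer cells of a type and less RNA per cell cannot be told apart.

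As a family, the 44 genes summed to 581 ± 59.4 RPKM in null and 549 ± 58.5 RPKM in flox hearts at E9.5 (SD, n = 5 each), and the groups overlapped. At E10.5 the sums were 578 ± 88.2 RPKM in null and 485 ± 23.3 RPKM in flox hearts (n = 3 each), with null 3 (504 RPKM) below flox 2 (510 RPKM). Collagen reads were 0.403% ± 0.0388 of all reads on genes in null and 0.380% ± 0.0411 in flox hearts at E9.5, and 0.385% ± 0.0639 and 0.325% ± 0.0219 at E10.5. A few genes held most of this RNA. At E9.5 the order of the means in null hearts was Col4a1 (117 RPKM), Col18a1 (101), Col4a2 (75.5), Col3a1 (57.1) and Col2a1 (51.0), whereas in flox hearts Col2a1 (82.0) came next after Col4a1 (110) and Col18a1 (101). Neighbours in these orders overlapped between libraries, except that Col18a1 lay wholly above Col4a2 in null hearts. By class, beaded filament collagens summed to 28.6 to 33.0 RPKM in null and 11.5 to 14.4 RPKM in flox hearts at E10.5, without overlap, and to 15.9 to 26.4 and 9.84 to 18.5 RPKM at E9.5, with overlap. Transmembrane collagens summed to 12.4 to 13.2 RPKM in null and 15.2 to 17.2 RPKM in flox hearts at E10.5, also without overlap. Multiplexins summed to 64.1 to 85.1 RPKM in null and 57.9 to 63.5 RPKM in flox hearts at E10.5, narrowly without overlap. Fibrillar collagens (232 to 287 RPKM in null and 184 to 238 in flox hearts at E10.5) and basement membrane network collagens (137 to 191 and 125 to 155 RPKM) overlapped. At E10.5 Col3a1 led in both groups, with 91.6 RPKM in null and 87.2 in flox hearts, followed by Col4a1 with 88.1 and 74.7 RPKM.

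**Figure D1:**
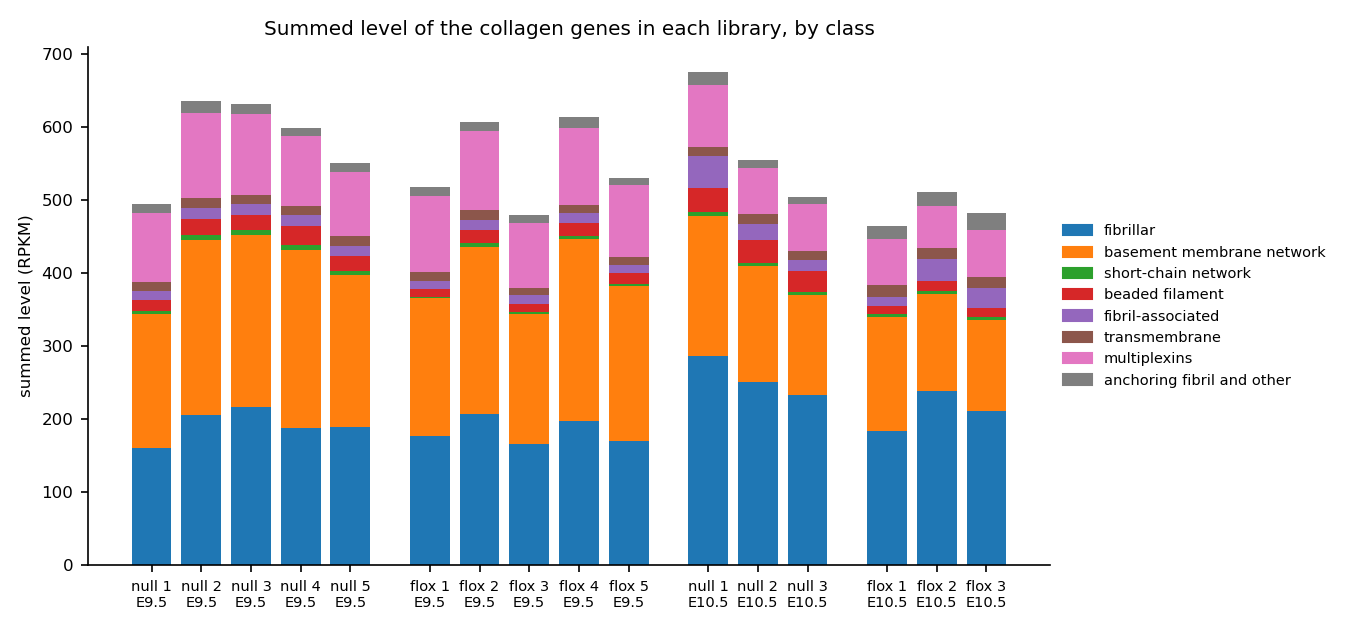
Summed level (RPKM, vertical axis) of the 44 collagen genes in each of the 16 libraries, stacked by class, with null left of flox at each stage. Fibrillar and basement membrane network collagens made up most of every bar, and the totals of null libraries (494 to 635 RPKM at E9.5) overlapped those of flox libraries (479 to 613 RPKM).

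Differences were tested by limma on log2(RPKM + 0.5) over all genes that averaged 0.5 RPKM or more across the libraries of a stage, and a gene counts as changed at a Benjamini-Hochberg adjusted p under 0.05. On this scale a change of a low gene is understated. At E9.5, 28 collagens could be tested: Col8a1, Col9a3, Col7a1 and Col6a1 rose in null hearts, Col12a1 and Col2a1 fell, and 22 did not pass. Col7a1 was tested only through its null libraries, since its flox mean (0.344 RPKM) lay under the filter. With a filter at a mean of 1 RPKM, 3 of 25 rose and 2 fell. Of all 13643 genes tested, 17.2% were called at E9.5 (6.87% rose and 10.3% fell), so 6 of 28 is near the background. The collagens called were the same 6 with median scaling, under which the split of all genes moved to 1151 higher and 1029 lower, against 937 and 1405. The median difference of the 28 was 0.18 beside -0.04 over all genes tested, and with no filter it was 0.05 over all 44 collagens beside -0.01. At E10.5, 30 could be tested: Col6a1, Col6a2 and Col1a1 rose, none fell, and 27 did not pass. Of all 14100 genes tested there, 2.07% were called (1.77% rose and 0.305% fell). Limma gave 6 of the 30 an unadjusted p under 0.05, as it did 22.9% of all genes. Limma's voom on recovered reads gave 3 rises and no fall with 2.5% of all genes called, and 9 of the 30 and 22.3% of all genes had an unadjusted p under 0.05. The median difference was 0.16 beside -0.03 over all genes, and with no filter 0.06 over all 44 beside -0.00047.

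Counting libraries in place of a test, all null libraries lay above all flox libraries in 3 of 28 collagens and below in 2 at E9.5, where 5.5% and 8.57% of all genes did so. The 3 include Col7a1, which passed the filter only through its null libraries. At E10.5 null lay above flox in 8 of 30 and below in 0, beside 13.9% and 17.4% of all genes. Col6a1 was the member that passed the test in the same direction at both stages. Col9a3 and Col7a1 lay wholly above flox at both stages, although Col7a1 was below the filter at E10.5, and Col2a1 lay below at E9.5 and above at E10.5.

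**Figure D2:**
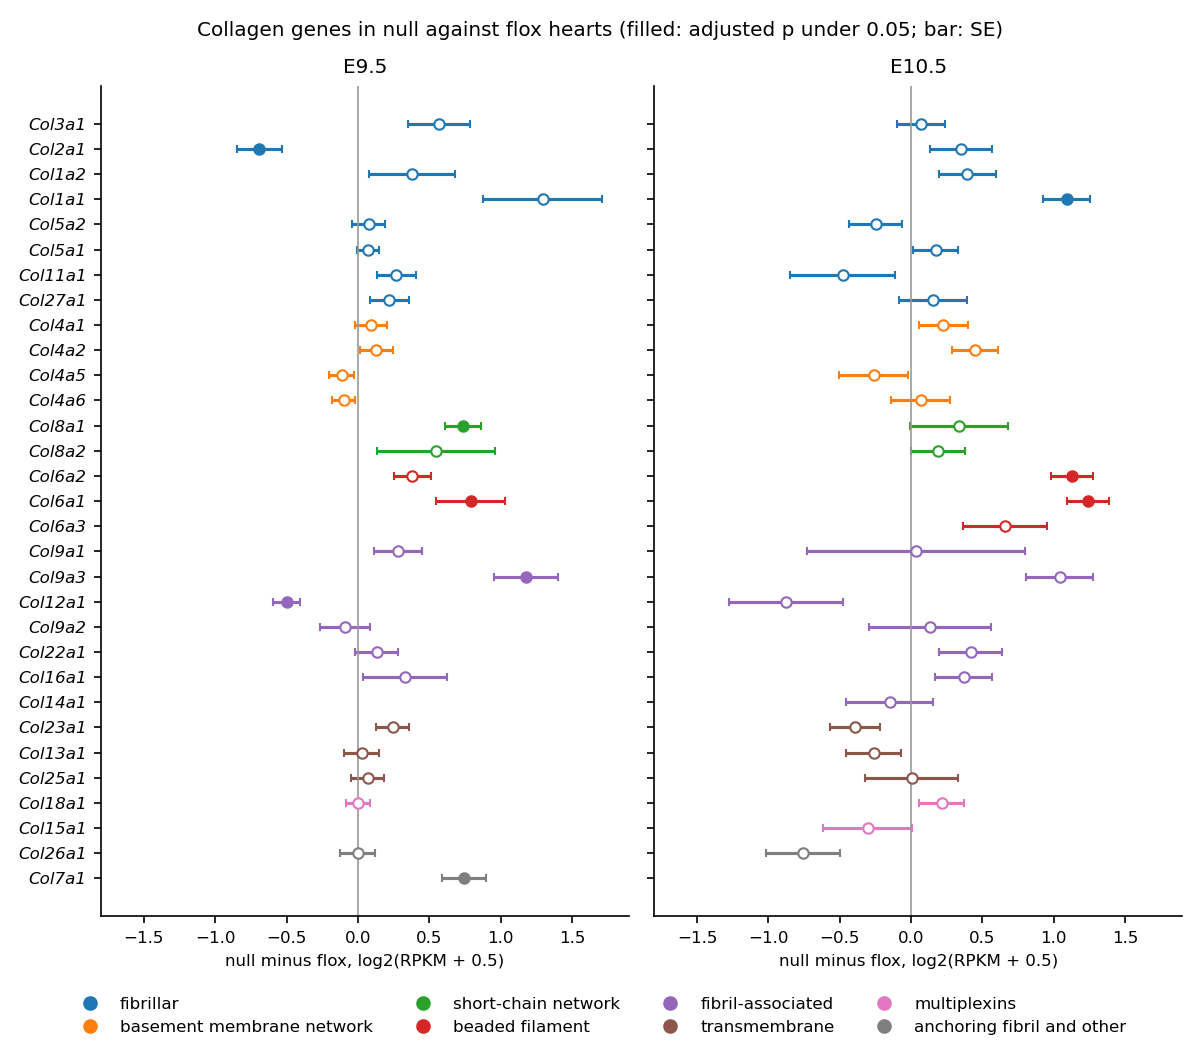
Difference between null and flox hearts on the log2(RPKM + 0.5) scale (horizontal axis) for the 31 collagen genes tested at E9.5 (left) or E10.5 (right), coloured by class, with bars for the standard error and filled points for an adjusted p under 0.05. Type VI chains lie to the right at both stages, and type IV chains lie near 0 at E9.5.

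Type VI collagen forms beaded microfilaments that link cells to basement membranes. Col6a1 (chr10:76708792-76726044, GRCm38.p6) had 16.8, 15.0 and 13.6 RPKM in the 3 null libraries at E10.5, against 5.60, 6.37 and 6.28 RPKM in the 3 flox libraries. Its mean was 2.48 times higher in null hearts and the groups lay far apart, a log2 difference of 1.24 (SE 0.15, adjusted p = 0.00771). Col6a2, 85.2 kb away (chr10:76595756-76623630), had 15.1, 13.5 and 13.1 RPKM in null and 5.45, 6.60 and 6.25 RPKM in flox hearts. Every null library again exceeded every flox library, and the log2 difference was 1.13 (SE 0.15, adjusted p = 0.0111). Leaving out flox 1 at E10.5 ended both calls (adjusted p = 0.0529 and 0.0709), and leaving out flox 3 ended that of Col6a2 (0.0651).

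At E9.5 the null and flox libraries of both chains overlapped. Col6a1 had 5.96, 9.91, 10.3, 12.8 and 9.92 RPKM in null and 3.04, 7.59, 4.13, 6.75 and 6.29 RPKM in flox hearts, a difference of 0.79 (SE 0.24, adjusted p = 0.0475). Null 1 lay among the flox libraries, and the call was lost when any of flox 1, 3 and 5 or null 2, 3, 4 and 5 was left out (adjusted p = 0.0651 to 0.104). Col6a2 had 9.70, 11.7, 10.3, 13.1 and 10.2 RPKM in null and 6.68, 10.6, 7.19, 9.89 and 7.73 RPKM in flox hearts, and its difference of 0.38 (SE 0.13, adjusted p = 0.0682) did not pass. Col6a3, the long chain that joins Col6a1 and Col6a2, was below the filter at E9.5 (0.363 RPKM over 10 libraries) and had 1.12, 1.59 and 1.84 RPKM in null and 0.448, 1.32 and 0.662 RPKM in flox hearts at E10.5. Its groups overlapped and its difference of 0.66 (SE 0.29, adjusted p = 0.225) did not pass. Col6a4, Col6a5 and Col6a6 had at most 12 reads in any library.

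Among the fibrillar collagens, Col1a1 (chr11:94936224-94953042), the main chain of type I collagen, had 52.5, 47.0 and 50.2 RPKM in null and 18.9, 27.5 and 23.8 RPKM in flox hearts at E10.5. The groups did not overlap, and Col1a1 rose by 1.09 (SE 0.17, adjusted p = 0.0192), a ratio of means of 2.13. The call did not hold without flox 1, flox 3 or null 2 (adjusted p = 0.0885, 0.0795 and 0.0544). At E9.5 the ratio of means was much the same at 2.15, with 14.9, 27.8, 28.7, 34.7 and 26.6 RPKM in null and 4.02, 16.1, 7.35, 25.8 and 8.30 RPKM in flox hearts. Flox 4 reached the level of the null libraries, and null 4 and flox 4, the libraries high in genes of low oxygen, were the highest of their groups. Flox libraries differed among themselves by 6.42 times. The difference of 1.29 (SE 0.42, adjusted p = 0.0544) did not pass. Among other fits, it passed without flox 4 (1.62, adjusted p = 0.0133), without null 1 (1.48, adjusted p = 0.0340) and with voom on recovered reads (1.39, adjusted p = 0.0418), which called 7 collagens and 16.7% of all genes at E9.5.

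Col1a2, its partner chain, had 11.0, 20.1, 21.0, 25.3 and 23.5 RPKM in null and 7.55, 23.3, 13.0, 21.6 and 14.3 RPKM in flox hearts at E9.5. At E10.5 it had 47.6, 49.2 and 52.7 RPKM in null and 28.7, 49.5 and 37.9 RPKM in flox hearts. The groups overlapped at both stages, and neither difference passed: 0.38 (SE 0.30, adjusted p = 0.415) at E9.5 and 0.39 (SE 0.20, adjusted p = 0.274) at E10.5. Col3a1, the fibrillar collagen of compliant tissue, averaged 57.1 ± 12.8 RPKM in null and 38.8 ± 12.3 RPKM in flox hearts at E9.5 (n = 5 each). Its libraries overlapped (35.8 to 67.5 RPKM in null and 27.2 to 58.6 in flox) and its difference was 0.57 (SE 0.22, adjusted p = 0.0946). At E10.5 Col3a1 averaged 91.6 ± 13.2 RPKM in null and 87.2 ± 11.0 RPKM in flox hearts (n = 3 each), with full overlap.

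Col2a1 (chr15:97975602-98004724), the cartilage collagen that is also made in the early embryonic heart, went the other way at E9.5. It had 63.7, 52.9, 57.7, 36.0 and 44.8 RPKM in null hearts, against 106, 70.2, 83.3, 72.8 and 77.9 RPKM in flox hearts. All null libraries lay below all flox libraries, and Col2a1 fell, with a difference of -0.69 (SE 0.15, adjusted p = 0.0124); it was also called in all 10 fits with 1 library left out. At E10.5 the level was 35.6, 21.5 and 20.5 RPKM in null and 19.2, 20.4 and 19.0 RPKM in flox hearts. Null 1 stood high there, the other null libraries lay just above the flox range, and the difference of 0.35 (SE 0.21, adjusted p = 0.347) did not pass (0.10 without null 1). Of 7 cartilage genes measured at E9.5 (Acan, Matn1, Sox5 and others), 4 could be tested and none passed. The 7 summed to 110 to 175 RPKM in null and 97.2 to 139 RPKM in flox hearts, with overlap, and the median difference of those tested was 0.15. At E10.5 none of 5 passed, and the cartilage genes summed to 100 to 143 RPKM in null and 146 to 218 RPKM in flox hearts.

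The other fibrillar genes did not pass at either stage. Col5a1 and Col5a2, which set fibril diameter, averaged 18.9 ± 2.03 and 13.7 ± 1.95 RPKM in null and 17.9 ± 1.05 and 12.9 ± 1.81 RPKM in flox hearts at E9.5. At E10.5 they averaged 14.1 ± 2.16 and 20.2 ± 4.16 RPKM in null and 12.4 ± 0.970 and 23.8 ± 2.65 RPKM in flox hearts. Col11a1, a minor chain of thin fibrils, averaged 2.50 ± 0.535 RPKM in null and 1.98 ± 0.335 RPKM in flox hearts at E9.5, and 3.19 ± 1.74 and 4.37 ± 1.49 RPKM at E10.5. Col27a1 averaged 1.49 ± 0.332 RPKM in null and 1.197 ± 0.203 RPKM in flox hearts at E9.5. All of these overlapped between null and flox libraries at E9.5. Col5a3, Col11a2 and Col24a1 stayed under the filter.

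Basement membrane collagens were abundant in every library, and none passed the test. Col4a1, the most abundant collagen over the 16 libraries, had 96.5, 127, 123, 131 and 109 RPKM in null and 97.9, 119, 91.2, 134 and 109 RPKM in flox hearts at E9.5. The groups overlapped throughout, with a difference of 0.09 (SE 0.11, adjusted p = 0.618). At E10.5 Col4a1 had 106, 83.4 and 74.8 RPKM in null and 83.3, 71.6 and 69.3 RPKM in flox hearts, again with overlap. Col4a2, its partner in the ubiquitous type IV molecule, averaged 75.5 ± 10.0 RPKM in null and 69.2 ± 10.6 RPKM in flox hearts at E9.5. At E10.5 it had 62.5, 48.5 and 45.8 RPKM in null and 41.4, 35.3 and 37.1 RPKM in flox hearts, with no overlap, but its difference of 0.45 (SE 0.16, adjusted p = 0.161) did not pass. Annotated Col4a1 and Col4a2 overlap at their starts and it is not known whether the counting used strand, so reads in that overlap cannot be assigned with certainty.

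The X-linked pair was lower. Col4a5 averaged 21.1 ± 2.08 RPKM in null and 22.9 ± 2.45 RPKM in flox hearts at E9.5, and 15.6 ± 4.03 and 18.7 ± 4.54 RPKM at E10.5. Col4a6 averaged 8.07 ± 0.653 RPKM in null and 8.70 ± 0.893 RPKM in flox hearts at E9.5, and 6.13 ± 1.13 and 5.85 ± 1.29 RPKM at E10.5. Neither gene passed at either stage, and their libraries overlapped. Col4a3 and Col4a4, the chains of the mature kidney basement membrane, had at most 19 reads in any library.

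Col18a1, which encodes the basement membrane collagen from which endostatin is cut, had 95.2, 116, 110, 96.9 and 88.2 RPKM in null and 104, 108, 88.5, 106 and 97.5 RPKM in flox hearts at E9.5. The groups overlapped throughout, with means of 101 ± 11.4 RPKM in null and 101 ± 8.01 RPKM in flox hearts and a difference of 0.00 (SE 0.08, adjusted p = 0.989). At E10.5 Col18a1 had 84.1, 63.6 and 64.5 RPKM in null and 62.2, 56.7 and 62.4 RPKM in flox hearts. The null libraries lay above the flox libraries, with null 1 far above the rest, and the difference of 0.21 (SE 0.16, adjusted p = 0.435) did not pass. Col15a1, the other multiplexin, was tested at E10.5, where it averaged 0.641 ± 0.325 RPKM in null and 0.911 ± 0.381 RPKM in flox hearts and did not pass.

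Short-chain collagens build hexagonal sheets, of which type VIII lies under endothelium. Col8a1 (chr16:57624256-57754737) had 3.16, 3.58, 4.25, 4.99 and 3.78 RPKM in null hearts at E9.5, against 1.94, 1.85, 2.17, 2.81 and 2.06 RPKM in flox hearts. No library overlapped, and Col8a1 rose by 0.74 (SE 0.13, adjusted p = 0.00342), the smallest adjusted p of the family at E9.5. At E10.5 the libraries of both groups spread by more than 2.5 times, with 2.86, 2.15 and 1.14 RPKM in null and 2.253, 1.46 and 0.847 RPKM in flox hearts, and the difference of 0.33 (SE 0.34, adjusted p = 0.584) did not pass. Col8a2 ranged over 0.375 to 2.30 RPKM in null and 0.129 to 2.31 RPKM in flox hearts at E9.5, lowest in null 1, flox 1 and flox 3. Col10a1, a marker of growth-plate cartilage, had at most 4 reads.

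Fibril-associated collagens sit on the surface of fibrils. Col9a3 (chr2:180598102-180622192), 1 of the 3 type IX chains, had 2.255, 4.09, 3.93, 2.87 and 3.39 RPKM in null and 0.679, 2.254, 0.796, 1.12 and 1.31 RPKM in flox hearts at E9.5. The highest flox library just reached the lowest null library without passing it, and Col9a3 rose by 1.18 (SE 0.23, adjusted p = 0.00592), a ratio of means of 2.68. At E10.5 it had 8.0, 5.42 and 6.64 RPKM in null and 2.15, 3.99 and 2.95 RPKM in flox hearts. The groups did not overlap there and the ratio of means was 2.21, but the difference of 1.04 (SE 0.24, adjusted p = 0.0691) did not pass.

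The other type IX chains, Col9a1 and Col9a2, did not pass at either stage. Col9a1 averaged 2.46 ± 0.510 RPKM in null and 1.96 ± 0.543 RPKM in flox hearts at E9.5, and at E10.5 its libraries ran from 2.96 to 22.5 RPKM in null and from 2.67 to 15.3 in flox hearts. Col9a2 averaged 1.36 ± 0.285 RPKM in null and 1.51 ± 0.533 RPKM in flox hearts at E9.5. Null and flox libraries overlapped in both.

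Col12a1 (chr9:79598987-79721141), which bridges fibrils in tissue under tension, had 2.98, 2.33, 2.56, 2.88 and 2.51 RPKM in null hearts at E9.5, against 4.48, 3.31, 4.09, 4.28 and 3.68 RPKM in flox hearts. The groups did not overlap, and Col12a1 fell, with a difference of -0.50 (SE 0.09, adjusted p = 0.00563). At E10.5 it had 3.01, 1.48 and 0.632 RPKM in null and 2.38, 4.44 and 2.94 RPKM in flox hearts. Null 1 stood among the flox libraries and the other null libraries lay below them. The difference of -0.88 (SE 0.40, adjusted p = 0.233) did not pass, nor did that of -1.29 without null 1 (limma adjusted p = 0.0909). Col22a1, found at tissue junctions, averaged 2.48 ± 0.470 RPKM in null and 2.23 ± 0.480 RPKM in flox hearts at E9.5, with overlap, and 1.10 ± 0.228 and 0.692 ± 0.0832 RPKM at E10.5, without. It did not pass at either stage. Col16a1 averaged 0.993 ± 0.450 RPKM in null and 0.676 ± 0.377 RPKM in flox hearts at E9.5 and was lowest in null 1, flox 1 and flox 3, as Col8a2 was. Neither Col16a1 at either stage nor Col14a1 at E10.5 passed. Col19a1 and Col20a1 were below the filter.

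Col7a1 (chr9:108953586-108984875), the anchoring fibril collagen of epithelia, was a low gene with a large ratio. At E9.5 it had 1.31, 0.924, 1.05, 0.560 and 0.797 RPKM in null and 0.431, 0.309, 0.460, 0.239 and 0.280 RPKM in flox hearts, which is 95 to 235 reads in null and 44 to 84 in flox libraries. The groups did not overlap, the ratio of means was 2.70, and Col7a1 rose by 0.74 (SE 0.15, adjusted p = 0.00879) on the log2(RPKM + 0.5) scale. With voom on recovered reads the difference was 1.47 (SE 0.25, adjusted p = 0.00249). Its flox mean lies under the filter, so it was tested through its null libraries. At E10.5 Col7a1 was below the filter, with 0.391, 0.321 and 0.381 RPKM in null and 0.0857, 0.153 and 0.0953 RPKM in flox hearts, again without overlap (55 to 64 reads in null and 14 to 25 in flox libraries).

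The transmembrane collagens Col13a1, Col23a1 and Col25a1 passed at neither stage, nor did Col26a1. At E10.5 Col23a1 averaged 6.78 ± 1.06 RPKM in null and 9.05 ± 1.196 RPKM in flox hearts, and Col13a1 averaged 4.48 ± 0.952 and 5.41 ± 0.595 RPKM. Each gene's libraries overlapped, while the summed level of the class did not. Col26a1 was even at E9.5 (11.7 ± 2.05 RPKM in null and 11.7 ± 1.70 RPKM in flox hearts). At E10.5 it had 17.7, 9.95 and 8.59 RPKM in null and 17.7, 18.8 and 23.3 RPKM in flox hearts. Null 1 stood with the flox libraries, the difference was -0.76 (SE 0.26, adjusted p = 0.150), and Col26a1 was called lower when null 1 was left out.

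**Figure D3:**
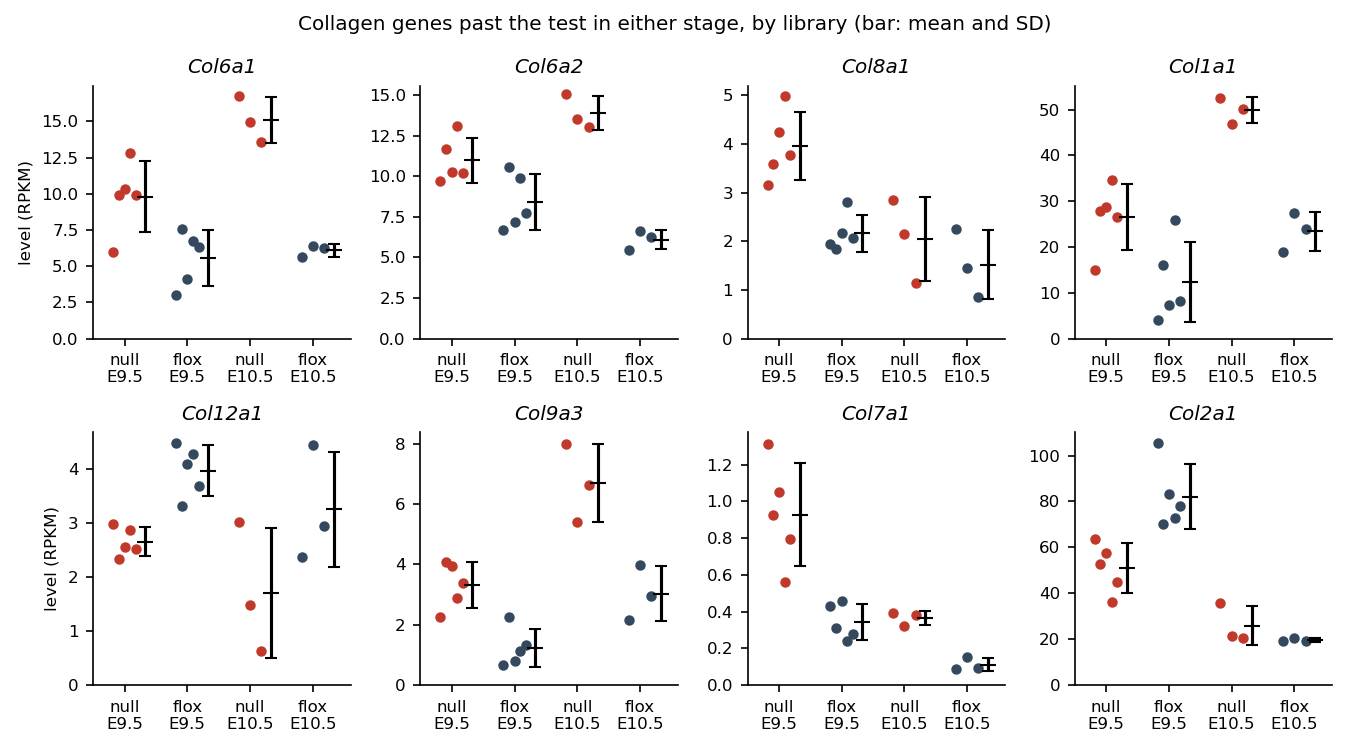
Level (RPKM, vertical axis from 0) of the 8 collagen genes that passed the test at a stage, in each library, with null left of flox at E9.5 and at E10.5; bars give mean and SD. Null lies wholly above flox for Col6a1, Col6a2 and Col1a1 at E10.5 and for Col8a1, Col9a3 and Col7a1 at E9.5, and wholly below for Col2a1 and Col12a1 at E9.5.

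At E9.5 the libraries lowest in epicardial genes were also lowest in several collagens. Col1a1 was lowest in flox 1 (4.02 RPKM) and flox 3 (7.35), and among null hearts in null 1 (14.9). The same libraries were the lowest of their group in Col1a2 (7.55 and 13.0 RPKM in flox, 11.0 in null) and in Col6a1 (3.04 and 4.13 RPKM in flox, 5.96 in null). Col2a1, Col7a1 and Col12a1 went the other way, with null 1 the highest null library in each (63.7, 1.31 and 2.98 RPKM). Flox 1 and flox 3 were the highest flox libraries in Col2a1 and Col7a1, and flox 1 was the highest in Col12a1. With the epicardial level in the fit, Col1a2 had a difference of -0.04 (SE 0.09) and Col1a1 of 0.78 (SE 0.24, adjusted p = 0.0606), while Col6a1 was 0.46 (SE 0.09, adjusted p = 0.00870). The 6 genes called at E9.5 remained called with that term, and also without null 1, flox 1 and flox 3, where 12.8% and 9.87% of all genes were called. At E10.5 the epicardial sums were 333 to 371 RPKM in null and 250 to 298 in flox hearts. The level in the fit is not the sum but the mean log2(RPKM + 0.5) of the epicardial genes past the filter. At E10.5 this level ran from 4.28 to 4.46 in null and from 4.18 to 4.45 in flox hearts, with overlap. Col1a1, Col6a1, Col6a2 and Col9a3 were called at E10.5 with the level in the fit, as were 1.28% of all genes. Krt19, also a gene of other epithelia, was the 1 of 10 epicardial genes that rose at E10.5, by 2.29 (SE 0.29, adjusted p = 0.010). Its mean there was 121 RPKM in null and 23.6 RPKM in flox hearts, which enters the difference in sums. At E9.5 Krt19 averaged 126 ± 72.3 RPKM in null and 80.5 ± 66.0 RPKM in flox hearts, a large part of the epicardial sum.

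**Figure D4:**
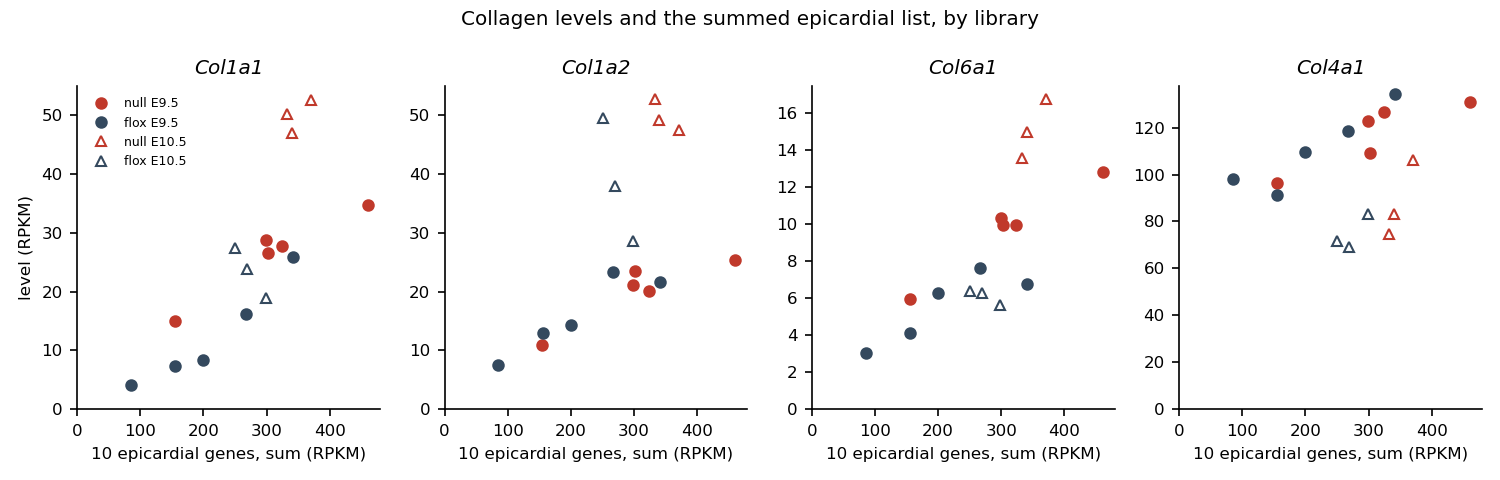
Levels of Col1a1, Col1a2, Col6a1 and Col4a1 (RPKM, vertical axes from 0) against the summed level of 10 epicardial genes (RPKM, horizontal axis) in each library; circles are E9.5, triangles E10.5. At E9.5 the 3 libraries with the lowest sums include the lowest Col1a1, 4.02 RPKM, and null points at E10.5 lie above flox points for Col1a1 and Col6a1.

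Erythroid genes moved with genotype at E9.5, as given above. With their level in the fit no collagen passed at E9.5 (5 of 28, and 13.5% of all genes, had an unadjusted limma p under 0.05) and the share of all genes called fell to 1.14%. Col8a1 then had a difference of 0.63 (SE 0.20, adjusted p = 0.196) and Col9a3 of 1.41 (SE 0.35, adjusted p = 0.0989). At E10.5 Col6a1 alone of the collagens passed, with 1.27 (SE 0.20, adjusted p = 0.0480), and 0.489% of all genes were called. Sex-linked genes were also unevenly spread: Xist exceeded Ddx3y in 2 of 5 null and 4 of 5 flox libraries at E9.5, and in 1 of 3 and 2 of 3 at E10.5. With the difference of these genes in the fit, Col6a1 no longer passed at E9.5 (adjusted p = 0.168) and Col1a1 no longer at E10.5 (adjusted p = 0.0512). The share of all genes called was then 8.53% at E9.5 and 0.688% at E10.5.

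Whether an effect differed between stages was tested on the 27 collagens measured at both, as the null minus flox difference at E10.5 minus that at E9.5. Col2a1 and Col6a2 passed, both with a positive change, and 4.04% of 13418 genes did so (2.62% positive and 1.42% negative). For Col2a1 the differences were 0.35 at E10.5 and -0.69 at E9.5, a change of 1.04 (SE 0.27, adjusted p = 0.0450). For Col6a2 they were 1.13 at E10.5 and 0.38 at E9.5, a change of 0.75 (SE 0.20, adjusted p = 0.0469). The Col6a2 call was lost in 13 of 16 and the Col2a1 call in 12 of 16 fits with 1 library left out, at 0.66 to 0.82 and 0.79 to 1.18. The share of all genes called ran from 0.0298% to 13.4% over these 16 fits. With the epicardial level in the fit the change was 0.87 for Col2a1, which then did not pass (SE 0.22, adjusted p = 0.0539), and Col6a1 passed beside Col6a2, with 0.75 (SE 0.17, adjusted p = 0.0390). That fit called 1.81% of all genes.

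Pairs of collagens were compared as a ratio within each library, which leaves out most of the library's scaling. Most pairs are chains of the same collagen type, and 2 set different types against each other, Col3a1 over Col1a1 and, at E10.5, Col18a1 over Col15a1. Col1a1 stood above Col1a2 in every null library at E9.5, with log2 ratios of 0.17 to 0.46, whereas in flox hearts the ratio ran from -0.83 to 0.26. The means were 0.39 ± 0.12 in null and -0.53 ± 0.45 in flox hearts (SD, n = 5 each; exact permutation p = 0.0159, two-sided, adjusted p = 0.127 over 8 pairs). The groups overlapped through flox 4, with 4 of 5 flox libraries below every null library. At E10.5 the ratio was 0.00 ± 0.12 in null and -0.70 ± 0.13 in flox hearts (n = 3 each), with no overlap.

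The ratio of the main type IV chains spread little within a group. Log2 of Col4a1 over Col4a2 was 0.63 ± 0.04 in null and 0.67 ± 0.01 in flox hearts at E9.5, and 0.75 ± 0.04 and 0.97 ± 0.07 at E10.5. The groups overlapped at E9.5 and did not at E10.5, where null lay below flox. The share of all pairs of genes that separate was not computed, and some pairs here share a gene. At E10.5 null lay wholly above flox for Col1a1 over Col1a2, Col5a1 over Col5a2 and Col6a1 over Col6a2, and wholly below for Col3a1 over Col1a1, Col4a1 over Col4a2 and Col4a5 over Col4a6. Each reached the exact permutation p of 0.1 that 3 against 3 libraries cannot go below, and no pair passed at either stage.

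**Figure D5:**
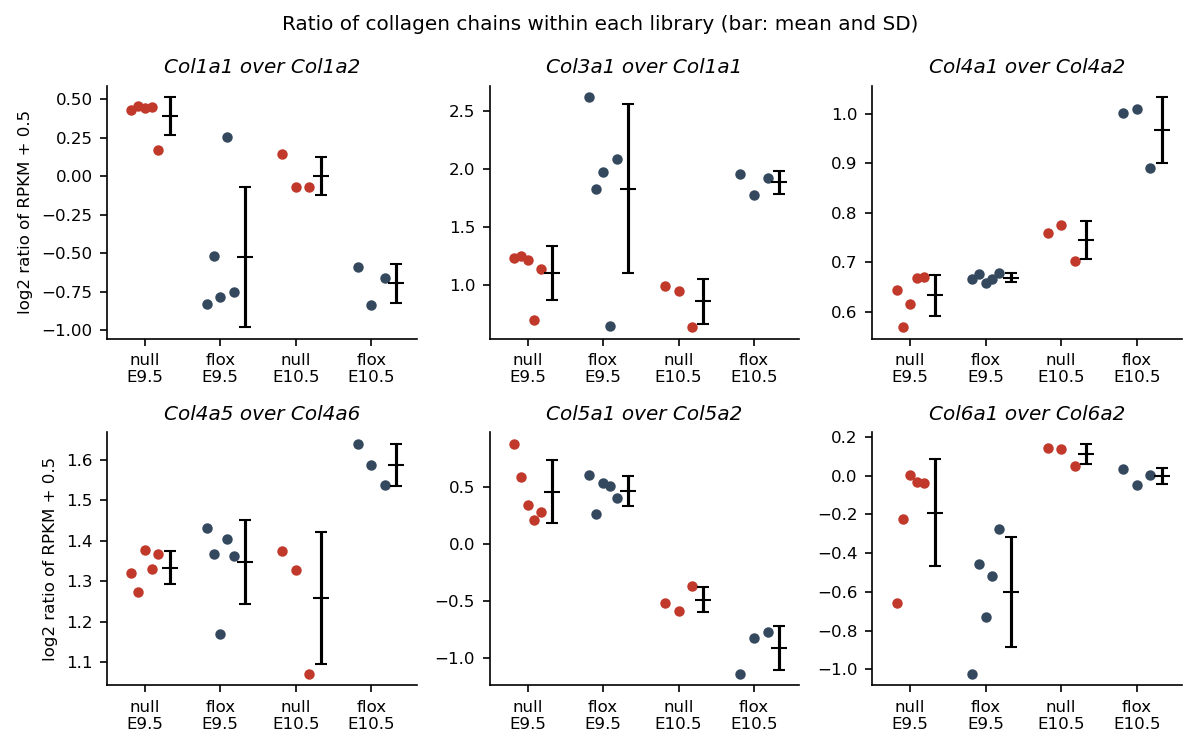
Log2 ratio of RPKM + 0.5 between the 2 chains named above each panel (vertical axis, not from 0), in each library, with null left of flox at each stage; bars give mean and SD. The Col4a1 over Col4a2 ratio spans under 0.5 on the log2 scale, and Col1a1 over Col1a2 is higher in null hearts at both stages except for flox 4 at E9.5.

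Genes that fold, process, bind and degrade collagen were counted from lists of known partners. Of all genes tested, 17.2% were called at E9.5 (6.87% rose and 10.3% fell) and 2.07% at E10.5 (1.77% rose and 0.305% fell). At E9.5 the counts of these lists lay near or below that share. Of 20 genes for folding and modification in the tables, Plod1, a lysyl hydroxylase, rose at E9.5, with 24.1 ± 3.11 RPKM in null and 16.3 ± 2.05 RPKM in flox hearts, by 0.55 (SE 0.10, adjusted p = 0.00483). Crtap, a partner of prolyl 3-hydroxylase, fell, with 12.2 ± 1.04 RPKM in null and 19.4 ± 2.22 RPKM in flox hearts and a difference of -0.65 (SE 0.09, adjusted p = 0.000856), and 18 did not pass. At E10.5, 3 of the 20 rose and none fell. P4ha2, a catalytic subunit of prolyl 4-hydroxylase, had 66.1, 33.9 and 27.4 RPKM in null and 12.6, 12.0 and 11.9 RPKM in flox hearts, a rise of 1.66 (SE 0.29, adjusted p = 0.0297). The groups did not overlap. Null 1, the library highest in genes of low oxygen, was also highest in P4ha2, and without it the rise was 1.29 (adjusted p = 0.010). The other null libraries also lay above the flox libraries in genes of low oxygen, so leaving out null 1 does not remove that difference. At E9.5, where P4ha2 did not pass, it was highest in null 4 (101 RPKM) and flox 4 (63.7), the libraries high in genes of low oxygen. The other null libraries had 25.2 to 31.9 RPKM and the other flox libraries 15.6 to 19.6 RPKM. Plod1 rose by 1.07 (SE 0.22, adjusted p = 0.0492) and Plod3 by 0.72 (SE 0.13, adjusted p = 0.0321). Plod1 too was highest in null 1 (32.9 RPKM, against 22.2 and 18.3 in the other null libraries), with a rise of 0.83 without it (adjusted p = 0.0445). Each of these 3 calls was lost with some library left out (adjusted p up to 0.114 for P4ha2, 0.213 for Plod1 and 0.152 for Plod3). Serpinh1, P4hb and the other 15 did not pass. The median difference of the list was 0.43 at E10.5 and 0.15 at E9.5, beside -0.03 and -0.04 over all genes.

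Of 10 processing and cross-linking genes tested at E9.5, Adamts14, a procollagen N-proteinase, rose by 0.47 (SE 0.10, adjusted p = 0.0116) and Loxl3, a lysyl oxidase, by 0.28 (SE 0.08, adjusted p = 0.0399). None of 11 passed at E10.5. The median difference was 0.15 at E9.5 and 0.37 at E10.5. The Loxl3 call was lost with some libraries left out (adjusted p up to 0.0925), as was that of Bgn (up to 0.0639). Among 8 proteoglycans and matricellular genes, Bgn (biglycan, a small proteoglycan on fibrils) rose at E9.5, with 15.5, 34.0, 29.5, 32.9 and 28.4 RPKM in null and 8.83, 19.6, 8.45, 19.2 and 12.4 RPKM in flox hearts, by 1.05 (SE 0.28, adjusted p = 0.0258). Bgn was lowest in the libraries low in epicardial genes, null 1 among null and flox 1 and flox 3 among flox libraries, and their part in its rise was not tested. Of 7 receptor genes Ddr1, a collagen-activated kinase, fell, with 41.3 ± 5.82 RPKM in null and 62.1 ± 8.65 RPKM in flox hearts, a difference of -0.58 (SE 0.12, adjusted p = 0.00682). Of 6 genes for degradation Timp3, a matrix-bound inhibitor of metalloproteinases, rose, with 36.1 ± 5.43 RPKM in null and 19.8 ± 4.32 RPKM in flox hearts, by 0.86 (SE 0.15, adjusted p = 0.00374). None of these 3 lists had a call at E10.5. Their median differences at E9.5 were 0.28, 0.10 and 0.29, and at E10.5 they were -0.09, -0.04 and 0.00. The calls of each list at E9.5 lay near or below the 17.2% of all genes called there.

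CHD4 binding in wild-type hearts at E10.0 was read from 3 deposited peak lists of 84271, 60749 and 50232 peaks, which come from 2 biological samples and share 22824 peaks (overlap of at least 1 bp, coordinates in mm10). A shared peak lay within 5 kb of either end of 14 of the 44 collagens (31.8%) and of 13 of the 31 tested (41.9%), against 65.1% of 14288 tested genes. By call, a shared peak lay there for 0 of the 4 collagens that rose at E9.5 and for both that fell, beside 51.1% and 76.3% of all genes that rose and fell. It did so for 1 of the 3 that rose at E10.5, beside 54.6%. Col2a1 had 4 shared peaks within the gene and 5 kb on each side, of which the highest, at chr15:97992949-97993619, outscored 98.2% of the peaks of list 1 by the authors' score. Col12a1 had 2, of which chr9:79716973-79717274 lay 3867 bp from the gene's end coordinate. Col1a1 had 1, at chr11:94937064-94937439, 840 bp from the gene's start coordinate. Within the gene and 5 kb on each side, 17 of the 31 tested collagens (54.8%) had a shared peak, against 70.4% of the tested genes, and Col6a1, Col6a2, Col7a1, Col8a1 and Col9a3 had none. The highest numbers of shared peaks were at Col13a1 (8), Col18a1 (7) and Col23a1 (6), none of which passed the expression test. Among the 35 promoter windows, those of Col25a1 and Col27a1 overlapped a shared peak.

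Seen by position, collagens lie in pairs and clusters: Col3a1 and Col5a2, Col4a1 and Col4a2, Col4a3 and Col4a4, Col4a5 and Col4a6, Col6a1 and Col6a2, Col6a4 to Col6a6, and Col9a1 and Col19a1 are within 100 kb of each other. Col6a1 and Col6a2 were the pair in which both genes passed. Col3a1 and Col5a2, 24.6 kb apart, had differences of 0.57 and 0.07 at E9.5 and of 0.07 and -0.25 at E10.5, none of which passed.

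The 13 genes tested at neither stage were Col4a3, Col4a4, Col5a3, Col6a4, Col6a5, Col6a6, Col10a1, Col11a2, Col17a1, Col19a1, Col20a1, Col24a1 and Col28a1. None exceeded 0.431 RPKM or 55 reads in any library, and the filter left them out of the test. Closest to the filter at E9.5 were Col25a1 (0.510 RPKM over 10 libraries) above it and Col6a3 (0.363) below it, and at E10.5 Col14a1 (0.730 over 6 libraries) above it and Col7a1 (0.238) below it.

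In the authors' deposited table of differences, given as log2 of control over null, 7 collagens were listed at E9.5 among 3094 genes (12.6% of 24509) and 4 at E10.5 among 1357 (5.54%). The authors' deposited table gave positive values at E9.5 to Col2a1 (0.59) and Col12a1 (0.52), lower in null. It gave negative values, higher in null, to Col7a1 (-1.15), Col8a1 (-0.81), Col6a1 (-0.66), Col3a1 (-0.49) and Col6a2 (-0.38). At E10.5 the authors' deposited table held Col6a1 (-1.26), Col7a1 (-1.23), Col6a2 (-1.14) and Col1a1 (-1.05). Col9a3, which passed limma at E9.5, was not among those listed by the authors' deposited table, and Col3a1 and Col6a2 at E9.5 and Col7a1 at E10.5 were listed there without a limma call.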

How the data were processed

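Collagen genes, classes and partner lists were chosen with earlier results of these data known. Polyadenylated RNA was sequenced from stranded libraries, per the labels' protocols; the groups are biological replicates per the labels, and the p-values measure the spread between these libraries. The authors deposited RPKM, read counts scaled to gene length and library size, for each gene and library. The build mm10 and the tools MACS2, DESeq2 1.6.3, HTSeq 0.6.2, bedtools 2.25.0, SAMtools 1.6 and Bowtie 1.2.0 are named, without a role, per the submitters' processing notes. The sources used here do not say whether counting used strand. The authors' deposited tables of differences give log2 of control over null. The authors' deposited peak lists, 1 per ChIP library, hold a score per peak that was used only to rank peaks within a list. The input libraries were not analysed here.

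RPKM times gene length gave whole multiples of the smallest positive value of a library for 100% of values (tolerance 0.01). That smallest value was taken as 1 read, which gave the reads per gene and the library size behind the RPKM. Genes that averaged 0.5 RPKM or more over the libraries of a stage were tested by limma 3.58.1 (R 4.3.3, trend) on log2(RPKM + 0.5), with Benjamini-Hochberg adjusted p under 0.05 over all genes; differences are null minus flox. The fits were tested on simulated data. Stage differences used all 16 libraries. Ratios of chains used exact two-sided permutation tests, whose smallest p is 0.00794 for 5 against 5 and 0.1 for 3 against 3 libraries. Alternatives were other pseudocounts (0.1 and 1), filters (none, mean of 1 RPKM), scalings, voom, marker levels as covariates, libraries left out and a replicate block. Genes named in full were those called at a stage or among the 8 most abundant over the 16 libraries, and others named were chosen after their values were seen. Tables were handled with Python 3.11.15, pandas 2.3.3 and scipy 1.17.1, and peaks with bedtools 2.31.1. Promoter sequences are RefSeq's.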

Additional observations from a re-analysis of the deposited data

Results flagged for a closer look

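The null minus flox difference of Col2a1 differed between stages by limma's interaction test: 0.35 at E10.5 and -0.69 at E9.5, a change of 1.04 (SE 0.27, adjusted p = 0.0450). Null 1 at E10.5, the library highest in genes of low oxygen, held 35.6 RPKM beside 21.5 and 20.5 in the other null hearts. The difference of Col6a2 also differed between stages, at 1.13 for E10.5 and 0.38 for E9.5, a change of 0.75 (SE 0.20, adjusted p = 0.0469). Both adjusted p-values lie close to the threshold. In 28 groups of 5 libraries examined, no single library of a named gene stood apart from its group by Dixon's criterion.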

How the results depend on the processing

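Among libraries left out, the number of collagens called ranged from 5 to 9 at E9.5, from 0 to 4 at E10.5 and from 0 to 2 between stages, and the number of chain ratios called from 0 to 2 at E9.5 (without flox 4, Col1a1 over Col1a2 and Col3a1 over Col1a1, exact permutation adjusted p = 0.0317) and from 0 to 0 at E10.5. With a library left out, the share of all genes called ranged from 11.3% to 20.3% at E9.5 and from 0.439% to 2.53% at E10.5. Between stages it ranged from 0.0298% to 13.4%. With erythroid level in the fit 0 collagens passed at E9.5 and 1 at E10.5, beside 1.14% and 0.489% of all genes. Between stages 0 collagens passed with no filter, 0 without the low-epicardium libraries and 1 with Xist against Ddx3y. Of all genes, 433 of 19258, 0 of 13453 and 558 of 13418 were called, in that order. Since no gene passed without the low-epicardium libraries, the loss in that fit is not particular to collagens. Same-numbered libraries shared deviations at r = 0.45, 0.04, -0.14, 0.52 and 0.26 at E9.5 and 0.05, 0.11 and -0.03 at E10.5; since not every r is over 0.1, the numbers are not taken to pair the samples. Own numbers were best for 3 of 5 and 1 of 3. The replicate block called 10 at E9.5 (adding Col1a1, Col3a1, Col6a2 and Col8a2), 3 at E10.5 and 3 between stages. With it 27.1%, 1.91% and 10.3% of all genes were called, against 17.2%, 2.07% and 4.04% without it. Signs turned, without a call, with the epicardial level in the fit for Col4a1 (-0.028), Col18a1 (-0.024) and Col1a2 (-0.038) at E9.5 and for the stage difference of Col1a1 (0.25) and Col9a3 (0.073). Without the low-epicardium libraries they turned for Col18a1 at E9.5 (-0.021) and the stage difference of Col1a1 (0.17) and Col9a3 (0.034), and with erythroid level for Col4a5 at E9.5 (0.020). Libraries left out turned signs within -0.79 to 0.029 (Col12a1 between stages), -0.53 to 0.11 (Col1a1 between stages), -0.33 to 0.054 (Col9a3 between stages), -0.049 to 0.050 (Col18a1, E9.5) and -0.040 to 0.17 (Col3a1, E10.5). For ratios the ranges were -0.057 to 0.0083 (Col4a5 over Col4a6, E9.5), -0.11 to 0.059 (Col5a1 over Col5a2, E9.5), -0.11 to 0.44 and -0.15 to 0.47 (Col8a1 over Col8a2, E9.5 and E10.5) and -0.42 to 0.29 (Col9a1 over Col9a2, E10.5). Of all 44 collagens, those with a CHD4 peak near an end, 14 as reported, were 8 within 1 kb and 30 within 50 kb. They were 9 with the upper part of peaks by score and 31, 22 and 23 with list 1, 2 or 3 alone. In that order the share of the 31 tested collagens, 41.9% as reported, was 25.8%, 71.0%, 25.8%, 83.9%, 61.3% and 64.5%. The share of all tested genes, 65.1% as reported, was 54.2%, 86.5%, 51.4%, 89.0%, 82.6% and 75.8%. With the annotated start it was 7 of 23 tested collagens (30.4%) and 63.1% of tested genes. Over all genes at E9.5, 937 rose and 1405 fell as reported, against 1151 and 1029 with median scaling and 1155 and 1128 with voom, with 6 and 7 collagens called. The cause of these changes was not tested.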
